A study of Mus musculus with 8 samples.

Results

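The loci described here carried an ac4C peak in both Dif-FGC libraries and in neither FGSC library. They were chosen by that presence of a peak alone, after the peaks of the 4 deposited lists had been merged to loci wherever they shared at least 1 bp. Of 39860 loci in all, 1453 met the rule, which is 3.65%, and they lay in 1163 genes, 10.2% of the 11381 that had any peak. For comparison, 1439 loci had a peak in both FGSC lists and in neither Dif-FGC list, and 6160 had a peak in all 4 lists. They are called Dif-FGC-only, FGSC-only and all-4 loci below. Because the rule used the peaks themselves, their presence, fold, score and length are given as a description, with no test.

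The study compared differentiated female germ cells (Dif-FGCs) at day 3 of differentiation with the mouse female germline stem cells (FGSCs) from which they were derived. By the study's methods the FGSCs were differentiated together with granulosa cells, in MEM-α with fetal bovine serum, bFGF, retinoic acid and BMP4. Both groups are labelled as ovary, as the cell line FGSCs and as germ stem cells, and they differ in being labelled a differentiated or a control group. Acetylated RNA immunoprecipitation and sequencing (acRIP-seq) gave 2 IP and 2 input libraries per group, and the lists hold the mRNA peaks of each IP library over its own input. Nothing in the labels shows that the replicates were separate cultures.

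N4-acetylcytidine (ac4C) is an acetyl mark on cytidine in RNA that the acetyltransferase NAT10 writes. In mRNA it is found within coding sequences and near the start of transcripts, and it has been tied to mRNA stability and to translation. FGSCs are cultured ovarian cells that divide and can be led towards meiosis, the division that forms the oocyte.

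The Dif-FGC lists held 22480 and 13920 peaks and the FGSC lists 22791 and 16290. The lists give no read numbers, so sequencing depth is unknown, and a locus without a peak in FGSCs is not shown to lack ac4C there. In bulk RNA, fewer cells of a type, less RNA per cell and less of one mRNA cannot be told apart. The authors' false discovery rate was high, although the processing notes name MACS2 while the percent form of the rate and of the score is that of an earlier MACS, so its exact meaning is not settled. It was 100% for every one of these loci in Dif-FGC 2, 55.9% to 100% in Dif-FGC 1, and 0 peaks of either Dif-FGC list had 5% or less. The FGSC lists were high too, with medians of 68.63% in FGSC 1 and 68.59% in FGSC 2. They had 1 and 0 peaks at 5% or less. Peaks of marker genes show ac4C enrichment over input and not expression, so they do not settle the cell type. In the FGSCs the paper detected germline markers, among them Ddx4, by RT-PCR and DDX4 protein by immunofluorescence. Of 26 markers of germline stem and early germ cells, 7 and 6 had a peak in the Dif-FGC lists and 9 and 7 in the FGSC lists, while the defining germ cell genes Ddx4 and Dazl had none in any list. Of 20 granulosa cell markers, 10 and 5 had a peak in the Dif-FGC lists and 6 and 2 in the FGSC lists, but the defining genes Amh, Foxl2, Fshr and Cyp19a1 had none. Fibroblast and stromal markers moved the other way, with 3 and 1 of 16 in the Dif-FGC lists and 8 and 6 in the FGSC lists. Of all 11381 genes with a peak, 8555 and 6478 had one in the Dif-FGC lists and 9050 and 8000 in the FGSC lists. The marker counts were not adjusted for these totals, which also differed between replicates. The part of co-cultured granulosa cells, or of stromal cells, in the loci was not tested.

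Several of the strongest Dif-FGC-only loci lay across or beside an annotated start of their gene, and the sequence there shows what the peaks covered. RefSeq windows from 250 bases before to 50 bases after a start that RefSeq gives for the gene are printed 5′ to 3′ on the gene's own strand for 5 of the 15 loci with the best fold rank. Capitals mark the bases inside the peaks of both Dif-FGC lists.
Fbxo44: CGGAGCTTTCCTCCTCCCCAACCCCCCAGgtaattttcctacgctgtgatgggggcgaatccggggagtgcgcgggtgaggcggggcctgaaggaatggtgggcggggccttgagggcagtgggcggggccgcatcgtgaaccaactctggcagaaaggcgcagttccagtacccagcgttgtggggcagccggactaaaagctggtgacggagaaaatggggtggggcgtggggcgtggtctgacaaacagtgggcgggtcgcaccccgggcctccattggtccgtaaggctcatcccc
Tubd1: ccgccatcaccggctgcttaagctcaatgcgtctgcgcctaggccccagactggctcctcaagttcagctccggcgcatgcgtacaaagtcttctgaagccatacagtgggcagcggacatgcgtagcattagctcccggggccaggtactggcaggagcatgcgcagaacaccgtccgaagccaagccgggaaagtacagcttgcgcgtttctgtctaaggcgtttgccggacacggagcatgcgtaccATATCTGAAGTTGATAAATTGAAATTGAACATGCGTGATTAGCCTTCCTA
Mxd1: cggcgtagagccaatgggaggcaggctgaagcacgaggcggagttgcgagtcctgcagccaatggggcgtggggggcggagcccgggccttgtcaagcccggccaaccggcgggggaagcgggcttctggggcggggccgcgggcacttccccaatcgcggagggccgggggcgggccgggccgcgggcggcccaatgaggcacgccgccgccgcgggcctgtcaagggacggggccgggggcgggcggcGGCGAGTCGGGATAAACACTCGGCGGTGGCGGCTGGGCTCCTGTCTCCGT
Dnmt1: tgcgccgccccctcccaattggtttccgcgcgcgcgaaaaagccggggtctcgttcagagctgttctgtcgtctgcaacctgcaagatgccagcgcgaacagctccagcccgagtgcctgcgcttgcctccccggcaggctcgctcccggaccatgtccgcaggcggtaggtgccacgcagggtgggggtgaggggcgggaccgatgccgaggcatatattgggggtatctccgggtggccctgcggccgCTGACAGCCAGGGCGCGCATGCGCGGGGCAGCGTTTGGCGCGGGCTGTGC
Ugp2: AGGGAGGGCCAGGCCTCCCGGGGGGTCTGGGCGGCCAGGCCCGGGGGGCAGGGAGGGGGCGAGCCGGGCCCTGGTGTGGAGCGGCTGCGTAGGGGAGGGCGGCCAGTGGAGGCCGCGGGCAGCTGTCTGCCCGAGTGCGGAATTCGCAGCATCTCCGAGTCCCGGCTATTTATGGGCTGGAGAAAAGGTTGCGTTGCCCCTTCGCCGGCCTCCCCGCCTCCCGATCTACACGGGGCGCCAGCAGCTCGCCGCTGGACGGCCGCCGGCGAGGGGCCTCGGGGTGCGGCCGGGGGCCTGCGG
The windows lie at chr4:148160045-148160344 (minus strand) for Fbxo44, chr11:86544741-86545040 (plus) for Tubd1, chr6:86669110-86669409 (minus) for Mxd1, chr9:20952574-20952873 (minus) for Dnmt1 and chr11:21370580-21370879 (minus) for Ugp2, in GRCm38.p6, the assembly of mm10. At Tubd1, Mxd1 and Dnmt1 the peaks began exactly at this start, at 86544991, 86669159 and 20952623, so the capitals are the first 50 transcribed bases by that annotation. RefSeq gives other starts too, and the centre of the Dnmt1 locus lay 7654 bp from the outermost 5′ end of the gene. At Ugp2 all 300 bases lay within both peaks, and at Fbxo44 the peak lay upstream of the start and shared 29 bases with the window. GC content was 65.3% in the Fbxo44 window, 55.7% for Tubd1, 76.7% for Mxd1, 69.7% for Dnmt1 and 76.0% for Ugp2.

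Starts of genes were nevertheless a minority of these loci. Of 1453 Dif-FGC-only loci, 155 (10.7%) met a start window of their own gene, against 350 of 1439 FGSC-only loci (24.3%) and 2286 of 6160 all-4 loci (37.1%). The 5′ limit of the locus equalled a RefSeq start for 82 Dif-FGC-only loci (5.64%), 193 FGSC-only loci (13.4%) and 1324 all-4 loci (21.5%). The motif CNNCNNCN, searched on the gene's strand within the first 50 bases after the start, was present in 59.4% of the 170 windows met by a Dif-FGC-only locus, 58.0% of those met by an FGSC-only locus, 65.5% of those met by an all-4 locus and 16438 of all 32851 windows. Median GC content of the windows was 63.3%, 62.0%, 64.7% and 52.7% in the same order, so base composition moved with the motif, and its part in the motif shares was not tested.

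Placed in the whole gene, 1190 of the Dif-FGC-only loci had a RefSeq gene with a known strand. The centre of 145 of them (12.2%) lay within 1000 bp of the 5′ end of the gene, against 28.7% of 1151 FGSC-only loci and 41.3% of 5021 all-4 loci. Within 1000 bp of the 3′ end lay 7.48% of the Dif-FGC-only loci, 4.87% of the FGSC-only loci and 4.60% of the all-4 loci. Elsewhere lay 80.6% of the Dif-FGC-only loci, and the lists do not say whether in exons or introns. Whole lists differed more between replicates than between the groups, with 22.1% and 28.2% of peaks near a 5′ end in the Dif-FGC lists and 23.9% and 29.8% in the FGSC lists. In lists shortened to equal length the shares were 13.8% for Dif-FGC-only and 37.0% for FGSC-only loci. The order was not kept when FGSC 2 was left out, but leaving out a library also changes the classes. Loci of a single list then enter the class of that group. Near a 5′ end lay 11.1% of loci of FGSC 1 alone and 14.7% of FGSC 2 alone. For Dif-FGC 1 alone and Dif-FGC 2 alone it was 7.61% and 10.1%. Without FGSC 1 the shares were 17.1% for Dif-FGC-only and 18.3% for FGSC-only loci, and without FGSC 2 the order turned, with 18.7% for Dif-FGC-only and 13.8% for FGSC-only loci.

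Position went together with strength among the Dif-FGC-only loci. Strength is given as the percentile of a peak's fold within its own list, where 100 is the strongest peak, because fold is not comparable between lists. Ordered by the mean of both percentiles, 42 of the strongest 119 placed loci (35.3%) lay near the 5′ end and 1 of the weakest 119 (0.84%) did. Loci near the 5′ end had a median mean percentile of 51.7 and a median length of 283 bp, those near the 3′ end 39.3 and 604 bp, and those elsewhere 35.6 and 167 bp. The same gradient was seen at FGSC-only loci, with median mean percentiles of 62.0 near the 5′ end and 39.9 elsewhere.

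**Figure D1:**
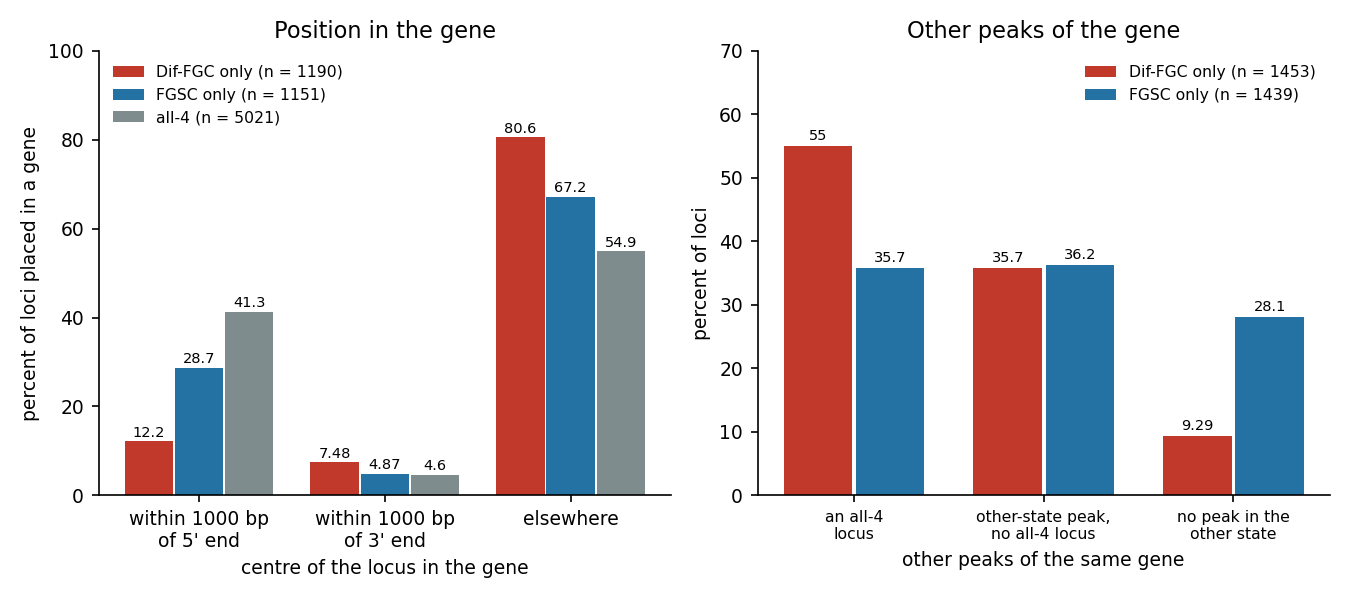
Left, percent of loci placed in a RefSeq gene whose centre lay within 1000 bp of the 5′ end, within 1000 bp of the 3′ end or elsewhere, for Dif-FGC-only, FGSC-only and all-4 loci. Right, percent of Dif-FGC-only and FGSC-only loci by the other peaks of the same gene, where 55.0% and 35.7% lay in a gene that also had an all-4 locus.

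In each Dif-FGC list most Dif-FGC-only loci lay below the median peak by fold. The median fold was 6.45 (quartiles 4.33 and 10.3) in Dif-FGC 1 and 5.68 (quartiles 4.38 and 8.06) in the Dif-FGC 2 list, and the median percentiles were 45.3 and 31.4. By comparison, all-4 loci had median percentiles of 80.8 and 72.8 in the same lists. Of the 1453 loci, 263 (18.1%) were above the median fold of both Dif-FGC lists, 698 (48.0%) were at or below it in both, and 9 were in the top 10% of both. A fold of at least 10 in both lists was reached by 130 loci (8.95%). Across the loci the folds of both lists had a Pearson r of 0.52 on the log2 scale and a Spearman rho of 0.43 (n = 1453 loci, which share 2 libraries). In 703 loci (48.4%) the limits of the peak were identical in both lists, against 70.1% of all-4 loci and, between the FGSC lists, 25.2% of FGSC-only loci.

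**Figure D2:**
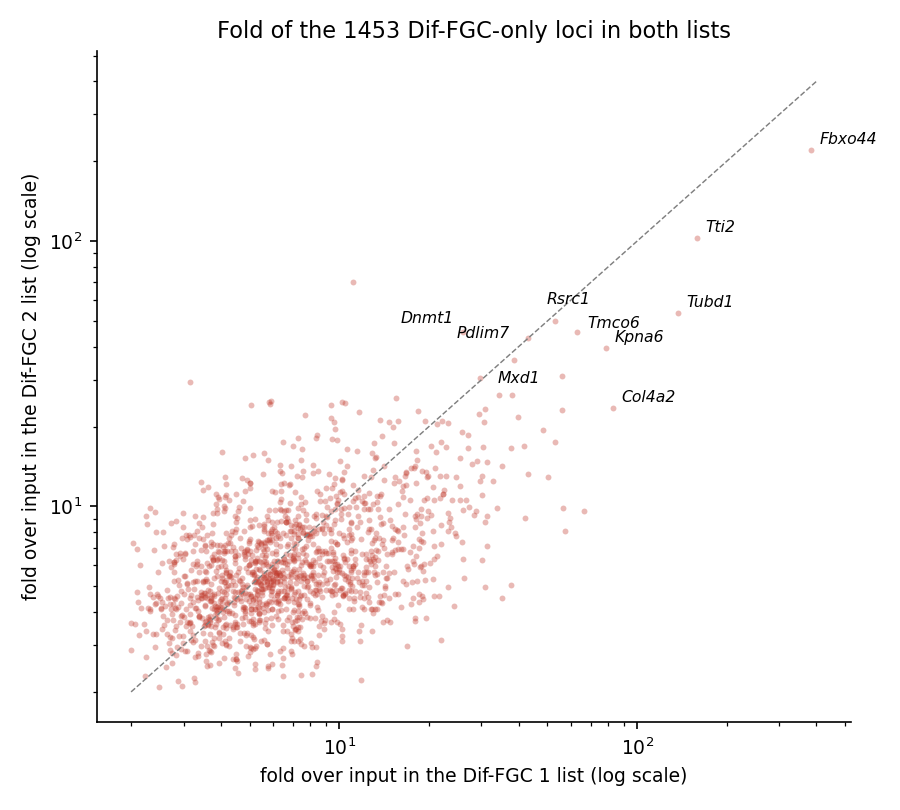
Fold over input of each of the 1453 Dif-FGC-only loci in the Dif-FGC 1 list (x axis, log scale) and the Dif-FGC 2 list (y axis, log scale), 1 point per locus, with the line of equal fold dashed and 10 of the strongest loci named. Most points lie at low fold in both lists, around the medians of 6.45 and 5.68, and Fbxo44 lies highest at 382.96 and 220.25.

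**Figure D3:**
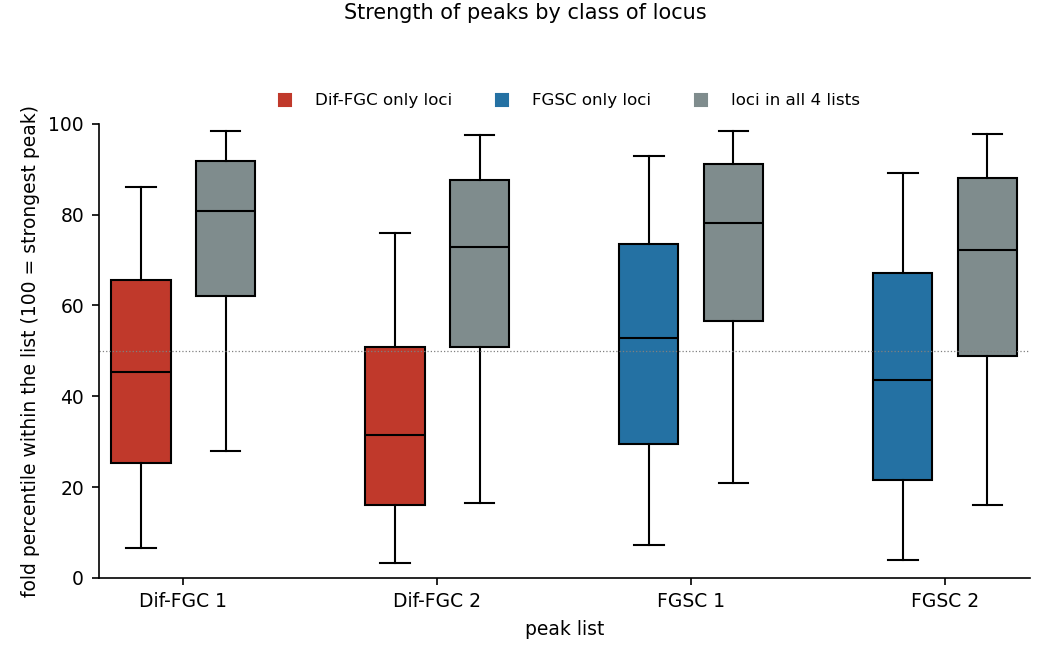
Fold percentile within each of the 4 peak lists (100 is the strongest peak of the list) for Dif-FGC-only, FGSC-only and all-4 loci, with boxes from the lower to the upper quartile, the median as a line and whiskers from the 5th to the 95th percentile. Dif-FGC-only loci have medians of 45.3 in Dif-FGC 1 and 31.4 in Dif-FGC 2, below those of all-4 loci.

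The 15 loci with the best mean percentile included regulators of protein turnover, kinase stability, cell division and DNA methylation. The locus of Fbxo44, an F-box protein that recruits substrates for ubiquitination, lay at chr4:148160316-148160482 with identical limits in both lists and folds of 382.96 in Dif-FGC 1 and 220.25 in the Dif-FGC 2 list. The percentiles were 99.8 and 99.7. The centre of this 167 bp locus lay at -215.5 bp from the outermost RefSeq 5′ end of the gene, where minus is upstream. The whole locus was therefore outside the annotated gene, and its assignment to Fbxo44 is not certain. The nearest FGSC peak was 138 bp away, and the gene itself had 3 peaks in FGSC 1 and 0 in FGSC 2, at other positions. Tti2, a cofactor for the folding of kinases of the mTOR and ATM family, had a locus of 1184 bp at chr8:31150316-31151499 with folds of 158.35 and 102.35, and no FGSC peak anywhere in the gene. It was 1 of only 2 loci of Tti2. Tubd1, which encodes delta tubulin of centrioles, had its only locus at chr11:86544991-86545336, with folds of 137.38 and 53.37, and the nearest FGSC peak, outside the gene, was 183 bp away. In Dif-FGC 1 these were the 3 highest folds among the Dif-FGC-only loci.

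The locus of Kpna6, an importin alpha that carries proteins into the nucleus, had folds of 78.58 in Dif-FGC 1 and 39.44 in the Dif-FGC 2 list at chr4:129672409-129672528. The locus of Tmco6 had 62.85 and 45.24, and that of Rsrc1, which encodes a splicing-related serine and arginine rich protein, had 53.13 and 50.04. The locus of Mxd1, whose protein opposes MYC at shared target sites, had 38.64 and 35.62. It spanned 224 bp from the annotated start shown above, 5835 bp from the nearest FGSC peak. At Dnmt1, the DNA methyltransferase that copies methylation after replication, a locus of 778 bp had 25.96 and 45.5. It ran from the annotated start shown above, which is not the outermost start of the gene, and an FGSC peak lay 84 bp from its edge. Dnmt1 had a further Dif-FGC-only locus, 1 FGSC-only locus and 6 all-4 loci. Ugp2, which makes UDP-glucose for glycogen, had 34.37 and 26.25, and Nmt2, which adds myristate to proteins, had 56.02 and 23.06. The locus of Col4a2 had 82.67 and 23.47, at percentiles of 97.6 and 85.9. That of Pdlim7 had 42.87 and 43.12, at percentiles of 93.7 and 94.1. Cep164, Sh3bp1 and Arvcf completed the set, with folds of 55.84 and 31.1, 38.05 and 26.21, and 29.72 and 30.53.

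At the weak end the locus of Nhlrc2 had folds of 2.22 in Dif-FGC 1 and 2.29 in Dif-FGC 2, that of Nup107, a nuclear pore scaffold subunit, 2.0 and 2.87, and that of Nomo1 2.25 and 2.71. They lay at the edge of what the lists contain, since the lowest fold in either Dif-FGC list was 2. In all, 14 loci had a fold under 3 in both lists.

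The rule turns on whether an FGSC peak touches the locus. The loci that came closest to failing it were those of Slc6a9, 4 bp from a peak of FGSC 2, Rnf14, 6 bp from a peak of FGSC 1, Cadm4, 20 bp from a peak of FGSC 2, and Ints13, 23 bp from a peak of FGSC 1. Their folds were 13.19 and 7.63, 13.69 and 10.92, 4.09 and 3.82, and 9.84 and 7.21 in the Dif-FGC lists, and the FGSC peaks beside them had 7.24, 13.9, 6.92 and 9.02. Just outside the rule were Trub1, Lyplal1, E4f1 and Slc22a13b, whose Dif-FGC peaks shared 3, 5, 7 and 7 bp with an FGSC peak. Such cases were few. Of the 1453 loci 9 had an FGSC peak within 50 bp and 76 (5.23%) within 200 bp, and the median distance was 2469 bp. More loci fell outside the rule for want of a peak in the other Dif-FGC list, since 7446 loci had a peak in Dif-FGC 1 alone and 1673 in Dif-FGC 2 alone. A further 2859 loci had a peak in both Dif-FGC lists and in 1 FGSC list, which was FGSC 1 for 1903 and FGSC 2 for 956.

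The next question was whether the genes of these loci had other loci that stayed in all 4 lists. Of the 1453 Dif-FGC-only loci, 799 (55.0%) lay in a gene with an all-4 locus, 519 (35.7%) in a gene with another FGSC peak but no all-4 locus, and 135 (9.29%) in a gene with no FGSC peak. Among FGSC-only loci the shares in the mirrored scheme were 35.7%, 36.2% and 28.1%. The difference kept its direction with lists of equal length, at 50.1% for Dif-FGC-only and 28.4% for FGSC-only loci in a gene with an all-4 locus, and without any 1 of the libraries, although without Dif-FGC 2 the shares were 45.5% and 43.6%. Counted by gene, 604 of the 1163 genes (51.9%) had an all-4 locus, against 35.0% of all genes with a peak, 184 (15.8%) also had an FGSC-only locus, and 119 (10.2%) had no FGSC peak. The genes held more loci than others, with a median of 6 against 2 for all genes, and the share of genes with a Dif-FGC-only locus was 1.75% of genes with 1 locus and 46.4% of genes with at least 11.

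In 5 of the strongest cases the Dif-FGC-only locus and an all-4 locus of the same gene can be set side by side. The all-4 locus shown is the 1 with the highest mean percentile over the 4 lists, as Rsrc1 and Col4a2 had 2, Dnmt1 6 and Cep164 8. At Rsrc1 the all-4 locus chr3:67290347-67290415 was at percentiles of 74.0 and 63.3 in the Dif-FGC lists and 38.6 and 45.5 in the FGSC lists, while the Dif-FGC-only locus chr3:66985978-66986188 lay 171 bp from the nearest FGSC peak. At Pdlim7, an adaptor of the actin cytoskeleton, the all-4 locus chr13:55506774-55508326 was at percentiles of 83.7 and 88.1 in the Dif-FGC lists and 25.7 and 47.4 in the FGSC lists, but the gene also had 2 FGSC-only loci beside its 1 Dif-FGC-only locus. Rsrc1 and Dnmt1 had 1 FGSC-only locus each. Cep164, a centriole appendage protein, had 8 all-4 loci and 3 Dif-FGC-only loci, and the strongest all-4 locus was at percentiles of 95.2 and 89.9 in Dif-FGCs and 93.6 and 97.1 in FGSCs. The strongest all-4 locus of Col4a2 was at 94.6 and 73.7 in the Dif-FGC lists and 94.8 and 52.2 in the FGSC lists, and that of Dnmt1 at 67.9 and 93.1 against 86.2 and 49.6. Among these 5 all-4 loci, those of Rsrc1 and Pdlim7 had both Dif-FGC values above both FGSC values, and the other all-4 loci of these genes were not compared one by one. Over the 1181 all-4 loci in genes with a Dif-FGC-only locus, the percentile was a median of 4.04 points higher in Dif-FGCs than in FGSCs and was higher at 63.6% of them. Over the 4979 all-4 loci of other genes the median was 1.01 points and the share 55.0%. By list, the 1181 loci had median percentiles of 79.0 and 72.7 in the Dif-FGC lists and 74.4 and 66.1 in the FGSC lists. Dif-FGC 2 thus lay below FGSC 1, and the replicates of each group differed from each other. Their genes were chosen by Dif-FGC-only peaks of the same lists, so the shift is a description only.

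In the 119 genes with no FGSC peak the Dif-FGC-only loci had nothing in FGSCs to be set against. The 3 after Tti2 and Tubd1 by fold rank are named here, chosen after their values were seen. Ephx2, a soluble epoxide hydrolase that acts on lipid epoxides, had 2 such loci, at chr14:66124255-66124522 with folds of 29.42 in Dif-FGC 1 and 22.34 in the Dif-FGC 2 list and at chr14:66116711-66116795 with 30.65 and 20.78. Its 4 loci gave 4 and 2 peaks in the Dif-FGC lists and 0 and 0 in the FGSC lists. Abcf2 had 41.8 and 16.89 at chr5:24576519-24576727, and Uap1, which makes UDP-N-acetylglucosamine, had 20.27 and 16.84 at chr1:170174750-170174964. In these genes the nearest FGSC peak was at least 10013 bp away.

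Loci could gather in 1 gene. A single Dif-FGC-only locus was found in 940 genes, 2 in 177, 3 in 32 and at least 4 in 14. The loci of 5 of these 14 genes are described here, Nol4l being taken from a tie at 4 loci because it had the fewest loci in all. Per2, a repressor of the circadian clock, had 5 such loci, with 13 and 12 peaks in the Dif-FGC lists and 4 and 5 in the FGSC lists. The strongest, at chr1:91450605-91450843, had folds of 30.48 and 16.74, and 19 loci lay in the gene in all.

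Cit, the kinase that completes the separation of dividing cells, had 6 Dif-FGC-only loci beside 8 all-4 loci, the strongest at chr5:115982083-115982247 with folds of 37.71 and 16.53. Nol4l had 4 beside 1 all-4 locus, the strongest at chr2:153416644-153416845 with folds of 17.4 and 13.93. The basement membrane collagen genes Col4a2 and Col18a1 had 5 each. Col4a2 had 23 and 22 peaks in the Dif-FGC lists and 24 and 4 in the FGSC lists, so its FGSC replicates were unlike each other, and 4 of its 5 loci lay within 10 kb of gene length. Col18a1, the source of endostatin, had 22 and 21 peaks in the Dif-FGC lists and 19 and 13 in the FGSC lists, and its strongest Dif-FGC-only locus, at chr10:77074350-77074481, had folds of 23.16 and 20.64. In these 5 genes the Dif-FGC-only loci stood among loci of other classes, and Col18a1 alone of the 5 also had an FGSC-only locus.

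**Figure D4:**
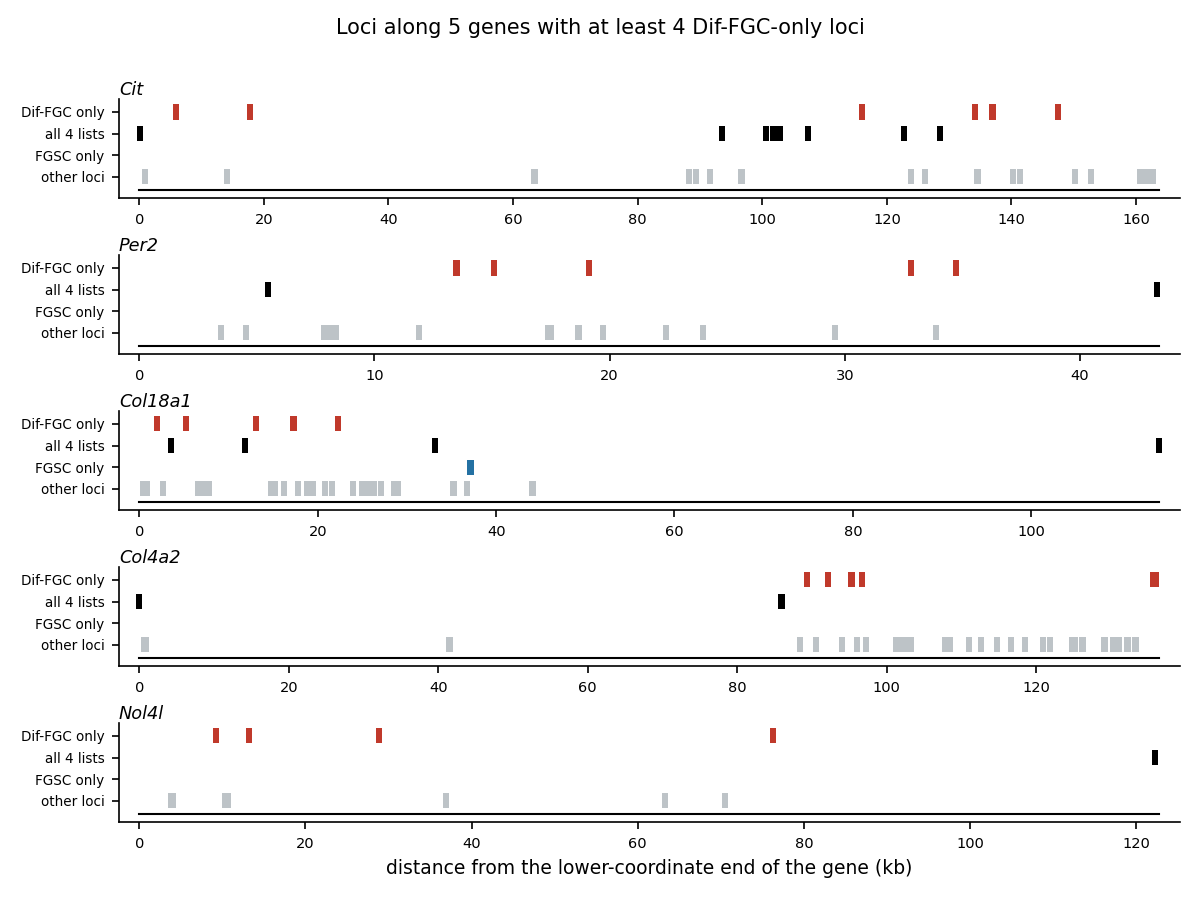
Loci of 5 of the 14 genes with at least 4 Dif-FGC-only loci, drawn by distance from the lower-coordinate end of the gene in kb, with Dif-FGC-only, all-4, FGSC-only and other loci in separate rows. Marks of short loci are widened to be visible, and 4 of the 5 Dif-FGC-only loci of Col4a2 lie within 10 kb of each other.

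Dif-FGC-only loci had a median length of 185 bp (quartiles 121 and 334 bp), against 166 bp for FGSC-only and 247 bp for all-4 loci. At least 1000 bp were spanned by 66 of them (4.54%), against 1.67% of FGSC-only and 9.66% of all-4 loci, and 25 were shorter than 50 bp. Peaks of Dif-FGC 2 were longer at 647 loci, those of Dif-FGC 1 at 103. The longest locus, 3173 bp at chr11:101457446-101460618, lay in Vat1 at the 3′ end of the gene, with folds of 3.27 in Dif-FGC 1 and 7.24 in Dif-FGC 2. It was followed by Ssh1, a phosphatase that activates the actin-severing protein cofilin, with 2854 bp and folds of 7.07 and 7.87, and by the ETS repressor Etv3 with 2735 bp and folds of 8.27 and 4.85. Gna12, a G protein alpha subunit, had 2585 bp with folds of 3.83 and 3.91, and Pja1, a RING ubiquitin ligase, 2236 bp with 5.69 and 4.25. All 5 genes also had an all-4 locus. The length of these loci did not go with a high fold, as the mean percentiles lay between 15.05 for Gna12 and 49.9 for Ssh1.

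Gene lists for cell types, signalling and RNA biology were described by how many of their loci were Dif-FGC-only, beside 3.65% of all loci. They were also described by how many of their genes with a peak had such a locus, beside 10.2% of all genes. The share by genes rises with the number of loci per gene and was not adjusted for it. Wnt and planar polarity signalling, which directs cell fate and tissue polarity, had the highest share by loci, while by genes FGF signalling and extracellular matrix lay above it. Of its 135 loci 16 (11.9%) were Dif-FGC-only, in 8 of 40 genes, and 2 loci were FGSC-only. The receptor Lrp5 had 4 of them, with folds of 11.89 to 19.88 in Dif-FGC 1 and 5.23 to 12.3 in Dif-FGC 2, beside 3 all-4 loci and 1 FGSC-only locus. Its relative Lrp6 had 2 with folds of 4.51 and 3.51 and of 2.06 and 3.6. Their products bind Wnt ligands as co-receptors. The secreted Wnt modulator Sfrp2 had 2 loci, at chr3:83766321-83767043 with folds of 21.13 and 16.02 and at chr3:83773118-83773704 with 4.96 and 7.4, and no FGSC peak. The ligand Wnt7b had 3, with folds of 3.01 to 13.19 in Dif-FGC 1 and 4.66 to 5.51 in Dif-FGC 2, and Wnt5a 1 with 9.85 and 6.08, again with no FGSC peak in either gene. The adhesion receptor Celsr2, the signal transducer Dvl3 and the kinase Gsk3a made up the 8 genes.

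FGF signalling, which acts through receptor tyrosine kinases and Ras, had 6 Dif-FGC-only among 54 loci (11.1%), in 5 of 18 genes (27.8%), and 1 FGSC-only locus. Of the 5, Spry2, Spry4 and Spred2 encode feedback inhibitors of the pathway, Fgfrl1 a receptor without a kinase domain and Sos1 an activator of Ras. The locus of Spry4 had folds of 12.82 in Dif-FGC 1 and 12.86 in Dif-FGC 2, that of Fgfrl1 10.01 and 5.65, and that of Spry2 5.59 and 7.35. Spry2 and Fgfrl1 had a peak in both Dif-FGC lists and in no FGSC list. Retinoic acid receptors and metabolism had 0 of 45 loci in 12 genes, and 2 of the loci were FGSC-only. BMP and TGF-beta signalling had 3 of 113 loci (2.65%) in 3 of 29 genes (10.3%), near the share of all genes, beside 1 FGSC-only locus. The 3 lay in Smad7, an inhibitor of the pathway, and in the latent TGF-beta binding proteins Ltbp1 and Ltbp3.

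Extracellular matrix genes had 24 Dif-FGC-only among 387 loci (6.20%), in 9 of 40 genes (22.5%), beside 13 FGSC-only loci in 9 genes. They were spread over the basement membrane genes Col4a1, Col4a2, Col18a1, Lamc1, Hspg2 and Agrn and over Fn1, Sparc and Loxl2. Fn1, which encodes fibronectin, had 4, and Hspg2, which encodes perlecan, 3. The FGSC replicates were unlike each other in several of these genes. Peaks in FGSC 1 and FGSC 2 were 24 and 4 for Col4a2, 17 and 1 for Col4a1, 24 and 5 for Hspg2 and 16 and 5 for Fn1. They were closer for Col18a1, with 19 and 13, and Loxl2 alone of the 9 genes had more in FGSC 2, with 0 and 1. Among the cell type markers with a peak, 1 gene in each of 5 lists carried such a locus. It was Etv5 of 12 early germline genes (8.33%), with folds of 5.84 and 5.06, Prdm9, which marks recombination sites, of 12 meiosis genes (8.33%), with 2 loci, and Nr5a2 of 13 granulosa cell genes (7.69%), with 15.42 and 4.66. It was Laptm5 of 7 leukocyte genes (14.3%), with 3.16 and 7.64. These shares lie around the 10.2% of all genes, and the oocyte and endothelial lists, with 5 and 2 genes, had none. Of 10 fibroblast and stromal genes it was Vim, with 7.0 and 6.95, against 1 FGSC-only locus each in Pdgfra and Twist1. Other genes of that list had more peaks in FGSCs, with 2 and 0 in the Dif-FGC lists and 6 and 5 in the FGSC lists for the collagen gene Col1a1, and 0 and 0 against 9 and 2 for Col1a2. The meiotic genes Stra8 and Sycp3 had no peak in any list. The paper reports both as induced in Dif-FGCs, as mRNA and as protein, which is another measure than ac4C enrichment over input.

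Chromatin genes were near or below the share of all loci but, without adjustment for loci per gene, above the share of all genes. Histone acetylation and bromodomain readers had 8 of 226 loci (3.54%) in 8 of 41 genes (19.5%), among them Hdac4 with folds of 12.63 and 8.2 and Kat8 with 13.98 and 5.65, and histone methylation had 8 of 293 loci (2.73%) in 8 of 52 genes (15.4%), among them Setd1b with 7.34 and 8.48 and the X-linked demethylase Kdm5c with 6.66 and 9.03. Hippo signalling had 5 of 134 loci (3.73%) in 4 of 27 genes (14.8%), in Fat1, Wwc2, Nf2 and Stk4. The mTOR list had 6 of 185 loci (3.24%) in 2 of 37 genes (5.41%), with 3 loci each in the autophagy kinase gene Ulk1 and in Tsc2, a brake on mTORC1. Translation factors had 3 of 121 loci (2.48%) in 3 of 31 genes (9.68%), namely Eif3d, Eif3l and Gspt1. Shares lower by both measures were found for RNA modification writers, erasers and readers, with 2 of 125 loci in 2 of 32 genes (Alkbh5 and Adarb1), and for oestrogen receptor and steroid synthesis genes, with 2 of 120 loci, both in Greb1, 1 of 18 genes. In the cell cycle list 1 of 129 loci was Dif-FGC-only, in 1 of 43 genes (E2f2, folds 15.05 and 6.64). The FGSC-only loci of these lists numbered 14 in 11 genes for histone methylation and 9 in 6 genes for Hippo signalling. There were 8 in 7 genes for histone acetylation and bromodomain readers, 6 for cell cycle and 5 for mTOR. RNA modification had 5, oestrogen receptor and steroid synthesis 4 and translation factors 0. Of 28 loci in 22 cytosolic ribosomal protein genes 3 were FGSC-only and 1 was Dif-FGC-only. It was named Rpl29 by the authors but lay on chromosome 5, at chr5:115801555-115802194, whereas RefSeq places Rpl29 on chromosome 9, so it cannot be assigned with certainty to that gene.

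**Figure D5:**
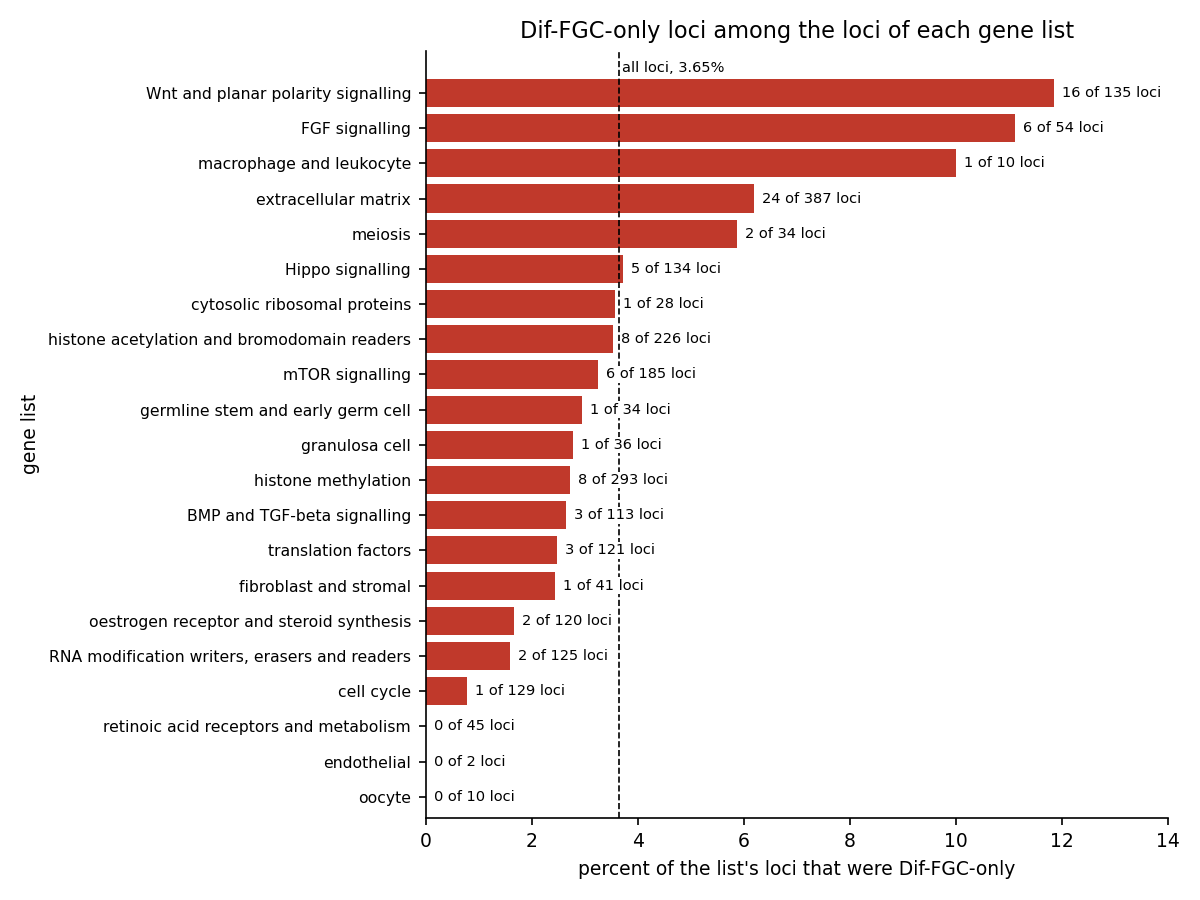
Percent of the loci of each of 21 gene lists that were Dif-FGC-only (x axis), with the counts printed beside the bars and a dashed line at 3.65%, the share over all loci. Wnt and planar polarity signalling and FGF signalling lie highest among lists with more than 50 loci, and retinoic acid, endothelial and oocyte genes have none.

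In the authors' own annotation the genes were broadly distributed. Among GO biological processes with at least 15 genes, the largest counts given here were for DNA-templated transcription and its regulation, with 135 of 1050 genes (12.9%) and 139 of 1128 (12.3%), transport with 109 of 1051 (10.4%), multicellular organism development with 60 of 426 (14.1%), positive regulation of RNA polymerase II transcription with 54 of 346 (15.6%) and cell differentiation with 50 of 306 (16.3%). The share over all 10704 annotated genes was 10.5%. These shares by genes were not adjusted for loci per gene. By loci, beside 3.65% of all loci, transcription had 178 of 4270 (4.17%) and its regulation 180 of 4408 (4.08%). For development 90 of 1669 loci (5.39%) and for differentiation 72 of 1311 (5.49%) were Dif-FGC-only. Molecular functions lay close to the overall 10.5%, from 10.3% for ATP binding to 11.4% for transferase activity among the named functions. The general terms biological_process, molecular_function and cellular_component lay lower, at 9.20%, 8.74% and 7.85% of their genes. By compartment, 12.5% of nucleoplasm genes, 11.8% of cytoplasm genes and 9.14% of extracellular exosome genes had such a locus. Their shares by loci were 3.77%, 3.86% and 3.51%, near the 3.65% of all loci. Among KEGG pathways the shares beside an overall 10.6% were 14.4% for endocytosis (31 of 215 genes), 13.7% for HTLV-I infection (28 of 204), 12.3% for pathways in cancer (35 of 285), 10.8% for PI3K-Akt signalling (24 of 222) and 9.40% for metabolic pathways (73 of 777).

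Across the genome the loci were found on every chromosome with a peak except Y, which had 6 loci in all. The share of loci that were Dif-FGC-only was between 2.32% on chromosome X (20 of 863) and 4.96% on chromosome 5 (149 of 3005).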

How the data were processed

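ac4C acRIP-seq was performed by the study on rRNA-depleted, fragmented RNA of Dif-FGCs and FGSCs. The submitters' processing notes name cutadapt, HISAT2, MACS2 and mm10, although the form of the score and false discovery rate is that of an earlier MACS. Versions are not given in the sources used here. The authors deposited 4 lists of mRNA peaks, 1 per IP library, with a fold enrichment that is a ratio of IP over input, a peak score of minus 10 times the log10 of the p-value, a false discovery rate in percent, and the peak length. No strand and no read counts are given, so the depth per library is unknown and overlap ignored strand. The peaks were not filtered by the false discovery rate, and input libraries were used only through the authors' fold.

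Peaks were merged to loci where they shared at least 1 bp, and classed by the lists with a peak. A locus takes its fold in a list from its strongest peak there, and coordinates are 1-based. RefSeq genes of GRCm38.p6 were found by symbol for 10652 of 11417 gene names, by ID for 430 and through a synonym for 175, while 160 stayed unmatched. Start windows of 300 bases come from RefSeq (GRCm38.p6), and motifs were searched there alone. Strand was taken from the same windows, so genes without one were not placed. A GO process among the most frequent and a gene are not reported here.

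Named loci were the 15 with the best mean fold percentile, the 5 longest, those of 5 of the 6 genes with the most loci (ties to the gene with the fewest loci in all), up to 3 genes per list (the other genes of a list are named to complete it), the 5 best in genes with an all-4 locus, the 4 nearest each side of the rule and the 3 weakest. The members and gene lists were chosen with earlier results of these data known. Merging was tested on simulated data, where all 6000 loci were found and no class was miscounted. Alternatives changed the overlap, the strength of peaks, the length of the lists, the rule and the libraries. Python 3 with pandas and numpy was used.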

Additional observations from a re-analysis of the deposited data

How the results depend on the processing

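The count of Dif-FGC-only loci stayed within 1.5 times of 1453 when peaks had to share 50% of the shorter peak, with a score of at least 100, with lists shortened to the length of the shortest by score and with no FGSC peak within 200 bp. With peaks of the upper 50% by fold there were 743 loci in 643 genes, 312 of the loci (42.0%) in a gene with an all-4 locus, with a median length of 225 bp and median folds of 12.3 in Dif-FGC 1 and 10.9 in Dif-FGC 2. With a peak in at least 1 Dif-FGC library as the rule there were 10572 loci in 5705 genes, 4283 of the loci (40.5%) in such a gene, with a median length of 136 bp and a median fold of 4.86 in Dif-FGC 1. A score of at least 100 gave 50.2%, 198 bp and folds of 7.52 and 7.07, and shortened lists gave 50.1% and folds of 9.17 and 6.36. Leaving out 1 library, with the rest merged again, gave 2412 loci (without FGSC 2) to 8994 (without Dif-FGC 2), 1822 to 5138 genes, 1494 to 4088 loci and 45.5% to 62.2% in a gene with an all-4 locus, median lengths of 127 to 194 bp, and median folds of 4.86 to 7.25 in Dif-FGC 1 and 5.18 to 6.51 in Dif-FGC 2. Counts rise by construction, since 1 library then stands for its group.

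Position and the FGSC-only comparison were put through the same alternatives after the data had been seen. The share near the 5′ end was 21.9% of Dif-FGC-only and 46.7% of FGSC-only loci in the stronger 50% of peaks, 15.2% and 36.8% with a score of at least 100, and 37.0% for FGSC-only loci in shortened lists. It was 8.64% of loci with a peak in at least 1 Dif-FGC library. Without 1 library it was 8.41% to 18.7% for Dif-FGC-only and 13.8% to 32.4% for FGSC-only loci, and the order turned without FGSC 2. The classes themselves change there, since 1 library then stands for its group. FGSC-only loci in a gene with an all-4 locus made up 22.1%, 28.8% and 28.4% in the stronger 50%, by score and in shortened lists, and 37.8% to 43.6% without 1 library. The motif could not be searched in the loci, because no genome sequence was used here. No paired analysis was possible because no result comes from a test.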
